A study of Mus musculus with 6 samples.

Results

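The glucocorticoid receptor gene and a set of genes that glucocorticoids induce were followed in bulk RNA-seq of mouse liver. The set held 10 genes chosen by name from the 55487 genes of the count table: Nr3c1, the receptor itself, Hsd11b1, the enzyme that makes its ligand inside the hepatocyte, and 8 genes known to be induced through the receptor, Fkbp5, Tsc22d3, Zbtb16, Klf9, Sgk1, Errfi1, Pik3r1 and Lpin1. The rule names the genes by their known roles and uses no threshold on these counts, but it was written with earlier results of these data known. All 10 passed the filter on low counts. The libraries came from 6 wild type mice, per the study's methods male C57BL/6J, which were kept on a normal chow diet. Of these, 3 mice were injected subcutaneously with GalNAc-siNC, a non-targeting control siRNA, and 3 with GalNAc-siRnf10, an siRNA against Rnf10, a gene for a RING finger protein. Livers were taken at 17 weeks of age, 1 library was made per mouse, and all 6 libraries are labelled batch 1. GalNAc is a sugar bound by the asialoglycoprotein receptor of hepatocytes, so uptake is mainly into these cells, whereas the RNA came from the whole liver. Neither the time of day of collection nor the feeding state at collection is given in the sources used here for these mice.

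Glucocorticoids are steroid hormones of the adrenal cortex, corticosterone being the main one in mice. The receptor waits in the cytoplasm in a complex with Hsp90 and its cochaperones, moves to the nucleus once a steroid is bound, and there binds DNA elements made of a pair of inverted hexamers, at which it recruits coregulators. In the liver the hormone raises gluconeogenesis, amino acid breakdown and lipid handling, and at the same time turns on genes that limit its own action, such as Fkbp5.

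Total counts lay between 26854377 and 33058645 per library, so that 3 counts were at most 1.12e-05% of a library, and the members held from 84 to 40861 counts. Pairs of libraries within a group differed by more than the sampling noise of their counts, so each mouse was counted as a separate sample, and the pairs with GalNAc-siNC mouse 1 differed most. Rnf10, the targeted gene, was measured at 130.4, 152.9 and 136.2 CPM (normalized counts, scaled to a common library size) in the GalNAc-siNC mice and at 58.6, 61.4 and 60.5 CPM in the GalNAc-siRnf10 mice. It fell by 1.22 on the log2 scale (adjusted p = 3.29e-09), and the groups did not overlap. Here and below, the adjusted p comes from the quasi-likelihood F-test of edgeR, corrected by the Benjamini-Hochberg method over all 14046 genes tested, and a gene is called changed where it is under 0.05.

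Most of the set was higher after Rnf10 knockdown, while the receptor gene was not called. Of the 10 members, 6 rose (Lpin1, Tsc22d3, Sgk1, Fkbp5, Errfi1 and Hsd11b1), none fell, and 4 were not called (Nr3c1, Zbtb16, Klf9 and Pik3r1). Among all genes tested, 6.71% rose and 7.28% fell, or 14.0% in either direction. The median log2 fold change of the members was 0.46, beside 0.0022 over all genes tested, whose median absolute log2 fold change was 0.18. In each of the 10 members the values of the groups did not overlap, which held for 32.8% of all genes tested. With 3 mice against 3, the two-sided exact permutation test gave p = 0.1 for each member, the smallest p that the 20 assignments allow. In bulk liver, fewer cells of a type and less RNA per cell cannot be told apart, and this holds for every value given here.

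**Figure D1:**
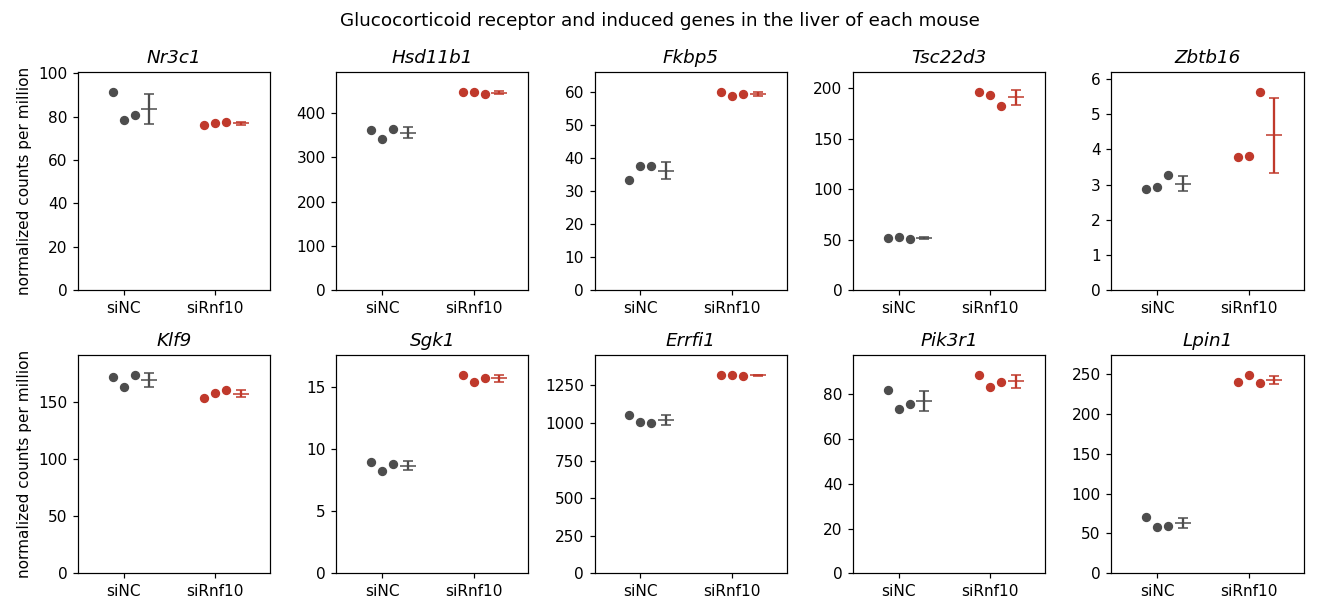
Normalized counts in CPM (vertical axes, each starting at 0) of the 10 members in every mouse, GalNAc-siNC in grey and GalNAc-siRnf10 in red, with the mean ± SD of the 3 mice of each group beside the points. In proportion, Tsc22d3 and Lpin1 show the widest gaps, from 51.6 to 191 and from 63.0 to 242 CPM, whereas the points for Nr3c1, Klf9 and Pik3r1 lie close together.

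The receptor gene Nr3c1 (ENSMUSG00000024431, chromosome 18, 39410545 to 39519421, minus strand, GRCm38) was measured at 91.5, 78.3 and 80.6 CPM in the GalNAc-siNC mice and at 76.2, 77.0 and 77.6 CPM in the GalNAc-siRnf10 mice. GalNAc-siNC mouse 1 stood above the other 5 mice, and the closest values of the groups differed by less than 1 CPM. The log2 fold change was -0.12 (95% interval -0.27 to 0.033, adjusted p = 0.313), and the upper end of this interval lay below the fold change of every member that was called. Without GalNAc-siNC mouse 1 it was -0.048. Nr3c2, the mineralocorticoid receptor gene, whose protein binds the same hormone and which was named after its values were seen, had a log2 fold change of -0.069 (adjusted p = 0.706).

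Hsd11b1 (ENSMUSG00000016194, chromosome 1, 193221634 to 193264075, minus strand) codes for the enzyme of the endoplasmic reticulum that regenerates active corticosterone from its inert keto form. It stood at 361.9, 341.3 and 364.7 CPM in the GalNAc-siNC mice and at 448.2, 448.7 and 443.5 CPM in the GalNAc-siRnf10 mice. All 3 knockdown mice were above all 3 control mice, and the rise was modest, from 356 ± 12.8 to 447 ± 2.86 CPM (SD, n = 3 each). Its log2 fold change was 0.33 ± 0.053 (SE, adjusted p = 0.000408). H6pd, which supplies this enzyme with NADPH inside the endoplasmic reticulum, moved the other way: it fell from 540 ± 21.8 to 391 ± 7.66 CPM, a log2 fold change of -0.47 (adjusted p = 1.10e-05).

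Fkbp5 (ENSMUSG00000024222, chromosome 17, 28399094 to 28517527, minus strand) codes for an Hsp90 cochaperone that lowers the affinity of the receptor for hormone and so closes a short feedback loop. Its level was 33.2, 37.6 and 37.6 CPM in the GalNAc-siNC mice and 60.0, 58.6 and 59.2 CPM in the GalNAc-siRnf10 mice. The knockdown mice lay close to each other, with an SD of 0.673 CPM, and above every control. The rise was 1.64-fold, a log2 fold change of 0.71 ± 0.075 (SE, adjusted p = 3.63e-06).

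Tsc22d3 (ENSMUSG00000031431, chromosome X, 140539528 to 140600659, minus strand) codes for GILZ, a leucine zipper protein through which glucocorticoids dampen inflammatory signalling. It was at 51.3, 52.8 and 50.7 CPM in the GalNAc-siNC mice and at 196, 193 and 182 CPM in the GalNAc-siRnf10 mice. Each knockdown mouse was thus between 3.45 and 3.88 times each control mouse. The log2 fold change of 1.89 ± 0.064 (SE, adjusted p = 3.44e-12) ranked 43 of the 14046 genes tested by absolute size.

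Zbtb16 and Klf9 code for transcription factors, a zinc finger repressor and a Krüppel-like factor. Zbtb16 (ENSMUSG00000066687, chromosome 9, 48654297 to 48836222, minus strand) was the least abundant member, at 2.88, 2.92 and 3.26 CPM in the GalNAc-siNC mice and 3.77, 3.80 and 5.64 CPM in the GalNAc-siRnf10 mice. GalNAc-siRnf10 mouse 3 stood apart from the other 2 knockdown mice, and the log2 fold change of 0.54 ± 0.19 (SE, adjusted p = 0.0694) was not called. Without that mouse it was 0.33 (adjusted p = 0.367), while without the filter on low counts its adjusted p was 0.0488. Klf9 (ENSMUSG00000033863, chromosome 19, 23141226 to 23168134, plus strand) was at 171, 162 and 173 CPM in the GalNAc-siNC mice and at 153, 158 and 160 CPM in the GalNAc-siRnf10 mice. Its log2 fold change was -0.11 (95% interval -0.23 to 0.020, adjusted p = 0.273), an interval that lies wholly below that of Tsc22d3, 1.75 to 2.02.

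Of the members that act in growth factor and insulin signalling, Sgk1 and Errfi1 rose and Pik3r1 was not called. Sgk1 (ENSMUSG00000019970, chromosome 10, 21882184 to 21999903, plus strand), a kinase related to Akt, was at 8.98, 8.24 and 8.76 CPM in the GalNAc-siNC mice and at 15.9, 15.3 and 15.7 CPM in the GalNAc-siRnf10 mice. The SD was 0.380 and 0.297 CPM within the groups, against means of 8.66 and 15.7 CPM, and the log2 fold change was 0.85 ± 0.10 (SE, adjusted p = 2.23e-05). Errfi1 (ENSMUSG00000028967, chromosome 4, 150853919 to 150868892, plus strand), an inhibitor of the EGF receptor, was the most abundant member, at 1055, 1004 and 999 CPM in the GalNAc-siNC mice and 1319, 1317 and 1312 CPM in the GalNAc-siRnf10 mice. Its rise was small in proportion, a log2 fold change of 0.37 ± 0.050 (SE, adjusted p = 6.00e-05). The knockdown mice varied by 0.292% around their mean. With 34623 to 40861 counts in these mice, so small a spread over 3 values is no measure of precision. Pik3r1 (ENSMUSG00000041417, chromosome 13, 101680563 to 101768217, minus strand), the regulatory subunit of phosphoinositide kinase, was at 81.9, 73.1 and 75.3 CPM in the GalNAc-siNC mice and at 88.5, 83.0 and 85.3 CPM in the GalNAc-siRnf10 mice. The lowest knockdown mouse was only just above the highest control mouse, GalNAc-siNC mouse 1. Its log2 fold change was 0.16 (95% interval 0.012 to 0.30, adjusted p = 0.150), and 0.20 (adjusted p = 0.00998) without GalNAc-siNC mouse 1.

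Lpin1 (ENSMUSG00000020593, chromosome 12, 16535669 to 16646966, minus strand) codes for a phosphatidate phosphatase that makes diacylglycerol for triglyceride synthesis and also acts in the nucleus as a coactivator of fat oxidation genes. It was at 70.5, 58.6 and 59.9 CPM in the GalNAc-siNC mice and at 240, 248 and 238 CPM in the GalNAc-siRnf10 mice. Each knockdown mouse was between 3.38 and 4.24 times each control mouse. The log2 fold change of 1.94 ± 0.074 (SE, adjusted p = 1.01e-11) was the largest of the members and ranked 37 of all genes tested. Among all genes, those whose centred log2 CPM over the 6 mice lay nearest to Lpin1 by Euclidean distance were Noct, a clock-linked phosphatase (0.217), Etnppl, an enzyme that breaks down phosphoethanolamine (0.227), and another member, Tsc22d3 (0.248). Noct went from 22.6 ± 1.17 to 83.2 ± 3.01 CPM and Etnppl from 32.4 ± 0.977 to 117 ± 0.994 CPM.

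**Figure D2:**
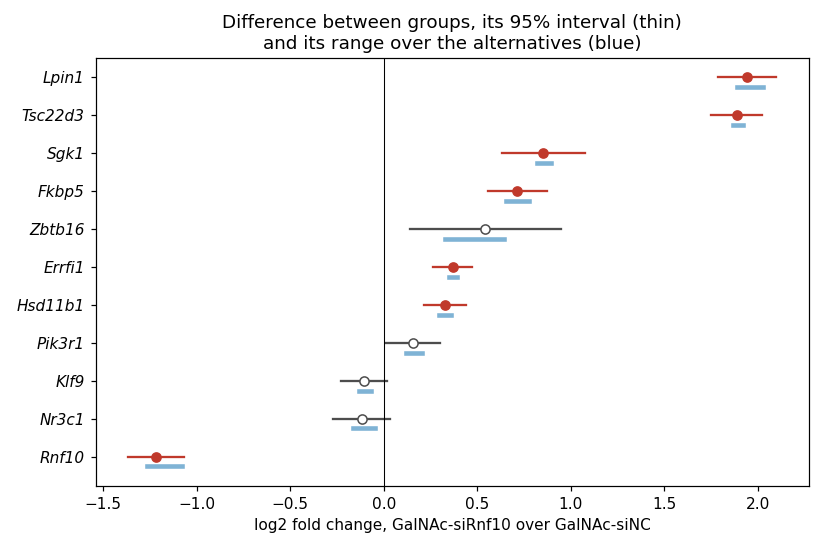
Log2 fold change of GalNAc-siRnf10 over GalNAc-siNC (horizontal axis) of each member and of Rnf10, with its 95% interval as a thin line and its range over the alternative settings as a thick blue bar, where filled points had an adjusted p under 0.05. Lpin1 at 1.94 and Tsc22d3 at 1.89 stand apart from the others, and the intervals of Klf9 and Nr3c1 include 0.

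Promoter windows of RefSeq genes (GRCm38.p6, 250 bases before to 50 after a start site) were at hand for 8 of the 10 members, 17 windows in all, and for neither Nr3c1 nor Zbtb16. They were searched on both strands for ACANNNTGT, the palindromic centre of the receptor's binding element, and for the hexamer TGTTCT, which reads AGAACA on the other strand and can overlap the first motif. The centre was found in 2 windows, both of Sgk1, and in 6.85% of all 32851 windows. The hexamer was found in 5 windows of 3 members, most of them windows of Sgk1 and the others of Lpin1 and Tsc22d3. It was found in 19.0% of all windows. No match lay in the windows of Hsd11b1, Fkbp5, Klf9, Errfi1 or Pik3r1, which says only that these letters are not there. Both shares are per window and not per gene. Sgk1 and Tsc22d3 had more windows than any other member, and some of their windows held no match. Below is 1 window of each of the 3 members with a match, picked because it holds one. For Sgk1, where several windows hold a match, the window with the most matches was picked. Each window is given 5′ to 3′ on the gene's strand and with the matched bases in capitals. In the Sgk1 window the centre lies 186 to 178 bases before the start site, and a hexamer match overlaps it on either side, while a further hexamer lies 242 to 237 bases before the start. In the Lpin1 window the hexamer lies 163 to 158 bases and in the Tsc22d3 window 185 to 180 bases before the start.
Sgk1, chr10:21993640-21993939, plus strand: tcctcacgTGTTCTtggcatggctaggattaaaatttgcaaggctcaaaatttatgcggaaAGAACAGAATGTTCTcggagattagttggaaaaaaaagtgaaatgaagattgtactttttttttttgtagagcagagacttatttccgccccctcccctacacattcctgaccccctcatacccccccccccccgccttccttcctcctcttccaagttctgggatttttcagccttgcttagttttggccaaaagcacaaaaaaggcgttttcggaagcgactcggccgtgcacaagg
Lpin1, chr12:16610917-16611216, minus strand: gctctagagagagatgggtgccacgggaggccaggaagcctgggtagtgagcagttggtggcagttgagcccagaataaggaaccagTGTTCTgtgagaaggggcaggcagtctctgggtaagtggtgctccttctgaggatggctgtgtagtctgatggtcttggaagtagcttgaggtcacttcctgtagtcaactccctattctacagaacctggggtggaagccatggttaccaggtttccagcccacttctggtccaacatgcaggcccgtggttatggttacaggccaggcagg
Tsc22d3, chrX:140600473-140600772, minus strand: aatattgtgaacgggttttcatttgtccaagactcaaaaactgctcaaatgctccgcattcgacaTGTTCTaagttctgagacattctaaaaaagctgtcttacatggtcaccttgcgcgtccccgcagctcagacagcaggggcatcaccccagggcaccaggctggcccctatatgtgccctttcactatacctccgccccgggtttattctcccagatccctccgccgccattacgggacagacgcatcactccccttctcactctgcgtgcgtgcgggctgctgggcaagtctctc
A match is a description of the letters, and binding was not measured in these livers.

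Set against the length of the gene model, the members covered a wide range of levels. In the GalNAc-siNC mice the order was Errfi1 at 285 ± 8.61 CPM per kilobase (SD, n = 3), Hsd11b1 at 83.7, Klf9 at 35.1, Tsc22d3 at 11.9, Nr3c1 at 10.9, Pik3r1 at 7.62, Lpin1 at 6.34, Fkbp5 at 3.82, Sgk1 at 1.77 and Zbtb16 at 0.572. Of neighbours in this order, only Tsc22d3 and Nr3c1 overlapped between mice. With GalNAc-siRnf10, Tsc22d3 at 43.9 CPM per kilobase stood above Klf9 at 32.6, Lpin1 at 24.4 stood above Nr3c1 at 10.01, and no neighbours overlapped. By the gain in level rather than in fold, Errfi1 led with 82.8 CPM per kilobase, followed by Tsc22d3 with 32.1, Hsd11b1 with 21.4 and Lpin1 with 18.0. The coefficient of variation was larger in the GalNAc-siNC mice for 8 of the 10 members, from 2.19% to 10.4% there. In the GalNAc-siRnf10 mice it ran from 0.292% to 24.2%, where Zbtb16 had the highest. The share of all genes with this direction was not computed, so it is not shown to be particular to the members. Whole libraries differed in the same direction, with a chi-square per gene of 9.53 to 27.8 between GalNAc-siNC mice, highest with mouse 1. Between GalNAc-siRnf10 mice it was 4.45 to 5.07.

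**Figure D3:**
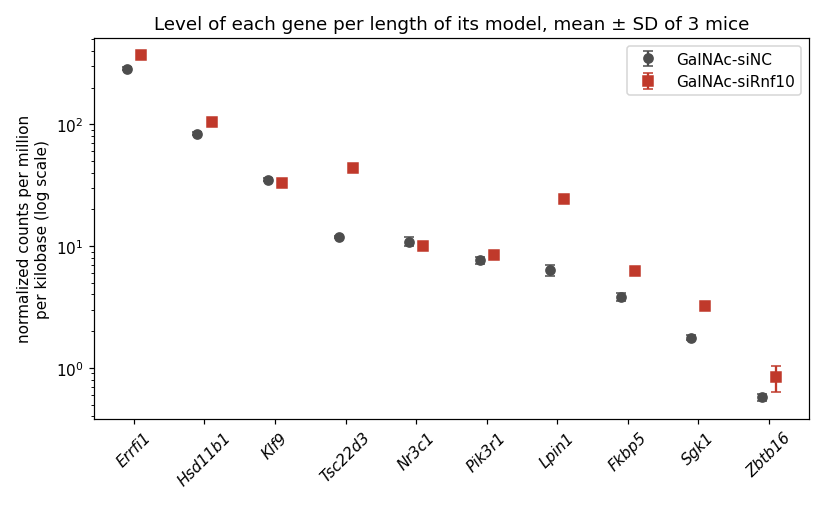
Level of each member in CPM per kilobase of gene model (vertical axis, log scale), as the mean ± SD of 3 GalNAc-siNC mice (grey circles) and 3 GalNAc-siRnf10 mice (red squares), ordered by the GalNAc-siNC level. Tsc22d3 goes from 11.9 to 43.9 and Lpin1 from 6.34 to 24.4, past members that lay above them in the control mice.

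The wider pathway was described with lists of other genes, none of them members. The counts of these and the later lists stand against 6.71% of all genes tested that rose and 7.28% that fell. Of 12 chaperones and cochaperones that hold the receptor, all tested, 4 rose and none fell, with a median log2 fold change of 0.11. The largest changes were in Dnajb1 and Hspa8, with a log2 fold change of 0.73 each (adjusted p = 5.35e-05 and 3.45e-08), and in Dnaja1, with 0.41 (adjusted p = 9.60e-05), all of them parts of the Hsp70 system that loads the receptor onto Hsp90. Among the 8 not called were the Hsp90 genes Hsp90aa1 (-0.046) and Hsp90ab1 (-0.054) and the cochaperones Ptges3 (0.022) and Fkbp4 (0.083). These were named after their values were seen. Of 13 coregulators, none rose and 2 fell, Crtc2 and Smarca4, with log2 fold changes of -0.31 and -0.29 (adjusted p = 0.0193 and 0.00767). Neither was called without GalNAc-siRnf10 mouse 1 or without GalNAc-siRnf10 mouse 2, and 1 was called without GalNAc-siRnf10 mouse 3. With splines of gene length and GC content, added as offsets, Smarca4 was at -0.16 (adjusted p = 0.0540) and not called.

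Of 10 genes of corticosteroid binding, metabolism and transport, 9 were tested, 3 rose and 1, H6pd, fell. Akr1c6, a ketosteroid reductase of the liver, rose by 0.51 on the log2 scale (adjusted p = 3.06e-06). Serpina6, the corticosteroid-binding globulin that carries the hormone in blood, rose by 0.42 (adjusted p = 8.56e-05), from 162 ± 6.20 to 217 ± 1.47 CPM. The other gene that rose was Akr1d1, a steroid reductase named after its values were seen (0.32, adjusted p = 0.00186). Without GalNAc-siNC mouse 2, the number of genes that fell was 2. The hormone itself was not measured in these libraries.

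Of 32 other genes known to be induced by glucocorticoids, 30 were tested, 17 rose, 2 fell and 11 were not called, with a median log2 fold change of 0.51. The groups of 23 did not overlap, which held for 32.8% of all genes tested, of which 6.71% rose and 7.28% fell. Ddit4, an inhibitor of mTORC1, had the largest change: it was at 2.76, 3.62 and 2.70 CPM in the GalNAc-siNC mice and at 17.4, 14.6 and 16.9 CPM in the GalNAc-siRnf10 mice, a log2 fold change of 2.43 (adjusted p = 2.90e-09). Igfbp1, a secreted binder of insulin-like growth factors, went from 10.3, 9.49 and 11.2 CPM to 42.0, 45.2 and 46.6 CPM, a log2 fold change of 2.11 (adjusted p = 6.46e-11). The groups of both genes were far apart. Tat, tyrosine aminotransferase and a classical glucocorticoid target of the hepatocyte, rose 2.66-fold, from 804 ± 31.0 to 2136 ± 22.7 CPM (adjusted p = 6.13e-12). Per1, a clock gene with direct receptor binding, rose 3.34-fold, from 11.8 ± 0.634 to 39.5 ± 2.12 CPM (adjusted p = 6.64e-10). The genes that fell were Dusp1, a phosphatase that switches off MAP kinases, and Lcn2, an acute phase lipocalin, which was named after its values were seen. Dusp1 was at 24.9, 30.3 and 28.5 CPM in the GalNAc-siNC mice and at 22.9, 22.2 and 22.7 CPM in the GalNAc-siRnf10 mice, a log2 fold change of -0.30 (adjusted p = 0.0326). That call was lost without any 1 of 5 of the 6 mice, all except GalNAc-siNC mouse 1, with adjusted p from 0.0790 to 0.133. Lcn2 fell from 524 ± 22.5 to 193 ± 8.43 CPM, a log2 fold change of -1.44 (adjusted p = 2.46e-11). Of the 11 genes not called, Mt1 (-0.86, adjusted p = 0.0502), Mt2 (-0.64), Irs2 (-0.29) and Bcl6 (-0.19) had negative log2 fold changes and the others positive ones. These 4 genes were also named after their values were seen. The number of genes that fell was 4 without GalNAc-siNC mouse 1 and 1 without GalNAc-siNC mouse 2 or without any 1 of the GalNAc-siRnf10 mice.

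Only 5 of 12 inflammatory genes known to be repressed by glucocorticoids had enough counts to be tested, and the 2 called went opposite ways. Cxcl1, a neutrophil chemokine, fell by 0.68 on the log2 scale (adjusted p = 0.00430), and Vcam1, an endothelial adhesion molecule, rose by 0.63 (adjusted p = 0.00283). The other 3 were not called and had negative log2 fold changes, Mmp9 (-1.40, from 3 to 22 counts), Il1b (-0.38) and Icam1 (-0.35, adjusted p = 0.0508). They were named after their values were seen, and the median over the 5 was -0.38.

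**Figure D4:**
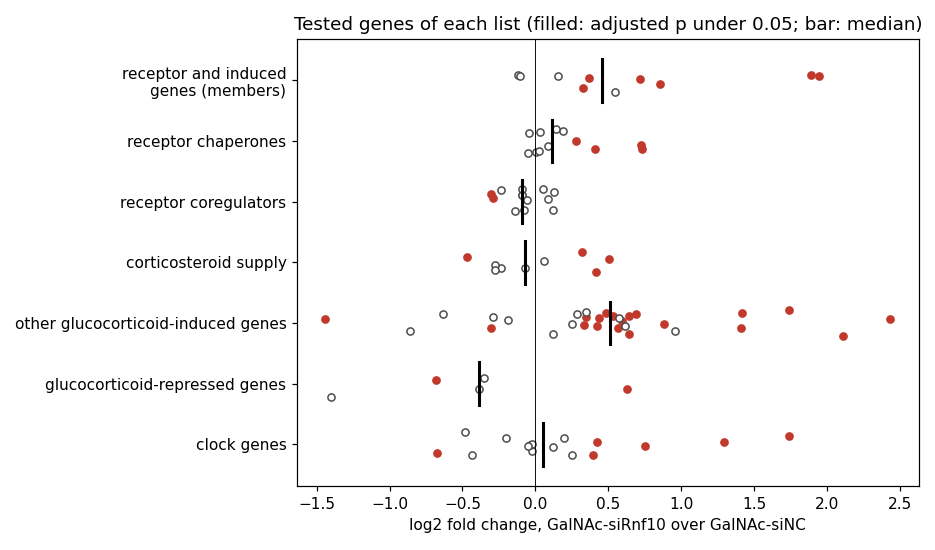
Log2 fold change of GalNAc-siRnf10 over GalNAc-siNC (horizontal axis) for every tested gene of the members and of 6 further lists, where filled points had an adjusted p under 0.05 and black bars mark each list's median. The members (median 0.46) and the other induced genes (median 0.51) have the highest medians, while those of the chaperones (0.11), coregulators (-0.093), supply genes (-0.069) and clock genes (0.049) lie near 0, although single genes reach 0.73 among the chaperones and run from -0.68 to 1.74 among the clock genes.

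Several of the induced genes are also under the circadian clock, and corticosterone itself has a daily rhythm, so clock genes are given beside them. Of 17 clock genes, 16 were tested, 5 rose and 1 fell. Per1 and Per2, the latter named after its values were seen, both rose and are also counted among the other induced genes above. Beside Per1, Ciart rose from 11.2 ± 1.504 to 27.3 ± 2.76 CPM (log2 fold change 1.29, adjusted p = 4.23e-07) and Cry1 from 4.64 ± 0.378 to 7.82 ± 0.287 CPM (0.75, adjusted p = 0.000992). Nr1d1, named after its values were seen, fell from 56.3 ± 5.18 to 35.2 ± 1.61 CPM, a log2 fold change of -0.68 (adjusted p = 1.78e-05). Arntl and Dbp, likewise named afterwards, were not called, with log2 fold changes of -0.43 (adjusted p = 0.466) and 0.25 (adjusted p = 0.532). The number of clock genes that fell was 3 without GalNAc-siNC mouse 1 and 2 without GalNAc-siNC mouse 3. The part of the clock genes in the members' changes was not tested.

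Markers of the liver's cell types also moved with the groups. Of 10 hepatocyte markers 9 were tested and 5 rose, Ttr and Alb most, with log2 fold changes of 0.66 and 0.64 (adjusted p = 0.0138 and 1.40e-07). The other 4 were not called, Asgr1 (0.11), Apoa1 (0.084), Hnf4a (0.081) and Apob (-0.11). The summed level of the list was 63830 to 68850 CPM in the GalNAc-siNC mice and 91420 to 94410 CPM in the GalNAc-siRnf10 mice. Of these sums Alb made up 39070 and 60860 CPM on average. The liver label thus matched its markers in every library. Of 6 stellate cell markers 3 rose, among them Colec11 (0.37) and Dcn (0.36), and 3 were not called, Lrat (-0.27), Pdgfrb (-0.25) and Des (-0.20). Their sums were 86.0 to 91.1 and 106 to 110 CPM, of which Dcn made up 49.1 and 62.9 CPM on average. Of 7 sinusoidal endothelial markers 2 rose, Lyve1 (0.55) and Clec4g (0.52), and 5 were not called, among them the most abundant, Stab2 (-0.26, adjusted p = 0.0544), and Cdh5 (-0.25), both with groups that did not overlap. Their sums were 73.7 to 75.0 and 76.6 to 80.8 CPM, and Lyve1 was not called by DESeq2 (adjusted p = 0.0555) or limma voom (0.0644). Of 6 cholangiocyte markers 5 were tested and 1 fell, Spp1 (-0.90), which alone went from 61.9 to 33.1 CPM of sums of 68.7 to 70.1 and 37.8 to 38.9 CPM, while Krt19, Krt7, Epcam and Sox9 were not called (-0.54 to -0.15). None of 7 Kupffer cell markers was called (174 to 201 and 184 to 196 CPM), nor were any of the 2 lymphocyte markers tested of 6 (1.25 to 1.93 and 1.22 to 1.90 CPM). S100a9, the only neutrophil marker tested of 5, fell (-1.43), with sums of 1.12 to 2.30 and 0.709 to 0.800 CPM. Leaving out 1 mouse ended several of these marker calls: Ttr without GalNAc-siNC mouse 2 (adjusted p = 0.114), Lyve1 without any mouse but GalNAc-siNC mouse 3 (up to 0.174), S100a9 without any mouse but GalNAc-siNC mouse 1 (up to 0.0841), and Colec11 without GalNAc-siNC mouse 2 or 3 or GalNAc-siRnf10 mouse 1 or 3 (up to 0.186). The stellate count was 1 without GalNAc-siRnf10 mouse 1, and without GalNAc-siNC mouse 1 there were 2 cholangiocyte, 1 Kupffer cell and 1 sinusoidal endothelial markers that fell. Of the defining markers of tissues outside the liver, Cyp11b1 and Mc2r of the adrenal and Adipoq, Lep and Plin1 of fat had 0 counts in every library. The other markers of these lists were detected at low counts, Star (61 to 108), Cyp21a1 (21 to 42) and Cyp11a1 (0 to 4) of the adrenal and Cidec (67 to 111) of fat, and none of those tested was called. Marker genes given here beyond those called were named after their values were seen. The part of these markers in the members' changes was not tested.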

How the data were processed

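RNA from 6 whole livers was measured by RNA-seq, 1 library per mouse, in groups taken from the labels. The authors made stranded mRNA libraries from paired reads on a DNBSEQ platform, aligned the reads with HISAT2 (genome GRCm38), and deposited a table of raw counts for each gene that also holds gene model lengths. The counting tool, annotation release and strand setting are not given in the sources used here. In the deposited counts, the value 2 was more frequent than the value 1 (10878 against 6043), and 63.9% of values from 1 to 20 were even, against 50.1% of values over 100. Total counts were 26854377 to 33058645, which sets a limit of 3 counts (9.08e-06% to 1.12e-05% of a library) for counting error only. Where 1 fragment gave more than 1 count, the fragments behind a value are fewer than its counts and this limit is too low, and whether it did was not tested.

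From these counts, genes were filtered with filterByExpr, scaled with TMM and tested in edgeR 4.0.16 (R 4.3.3) by a robust quasi-likelihood F-test with treatment as the only term and Benjamini-Hochberg adjustment over 14046 genes. The biological coefficient of variation was 9.28%. Values are CPM on TMM library sizes, and levels per kilobase use the deposited lengths. Intervals are at 95%. Each library is a separate mouse. Symbols came from GENCODE M21 (GRCm38), in which 55141 of the 55487 identifiers had one, and of 160 list symbols 159 were found. No exon of a member overlapped an exon of another gene. The deviations of same-numbered mice of the groups were nearly uncorrelated, which cannot exclude a pairing.

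The members and gene lists were chosen with earlier results of these data known. Named genes are the members, Rnf10, Per1, Dusp1, Tat, up to 3 called genes of largest change per list (2 per marker list) and the 3 genes nearest to the most changed member, and the few others are marked. Alternatives were RLE and upper quartile scaling, other filters and thresholds, DESeq2 1.42.0, limma 3.58.1 voom, a replicate block, splines of gene length and GC content, and leaving out each mouse. The test was checked on simulated counts. Figures were drawn with matplotlib 3.10.9.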

Additional observations from a re-analysis of the deposited data

How the results depend on the processing

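The 6 members that rose were called in the same direction under each of the 16 alternatives that were fitted to single genes, with log2 fold changes of 1.89 to 2.03 for Lpin1, 1.87 to 1.92 for Tsc22d3, 0.82 to 0.89 for Sgk1, 0.65 to 0.78 for Fkbp5, 0.35 to 0.39 for Errfi1 and 0.30 to 0.36 for Hsd11b1. Nr3c1 (-0.16 to -0.048) and Klf9 (-0.13 to -0.068) were called under none. The number of members that rose was 4 where a change of 0.5 or more on the log2 scale was also asked, 7 without a filter on low counts and without GalNAc-siNC mouse 1, and 8 with splines of gene length or of length and GC content, where Zbtb16 and Pik3r1 were added. No member was called lower in any of them. Rnf10 ranged from -1.27 to -1.08.

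Over all genes, 1965 were called, 1042 at an adjusted p under 0.01, 823 with the limit on fold change, 1912 by DESeq2 and 2328 by limma voom. Leaving out 1 mouse gave 1053 to 2864 genes, the most without GalNAc-siNC mouse 1 (2864) and the fewest without GalNAc-siRnf10 mouse 1 (1053), mouse 2 (1128) or mouse 3 (1128). The cause was not tested, beyond the loss of a sample. The replicate block gave 1816 genes and the same number of members, 6, and under it Lyve1 was not called (adjusted p = 0.0506). Splines of gene length, and of length and GC content, ended the call of Colec11 (adjusted p = 0.159 and 0.124). The correlations of same-numbered mice were -0.00099, 0.027 and -0.034, and those of differently numbered mice ran from -0.036 to 0.037. Not every mouse correlated best with its own number. These values are centred within groups of 3 mice and so are not independent, and they cannot exclude that mice were paired. Zbtb16 had the fewest counts of the members, 84 to 157, and these may stand for fewer fragments.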
